A study of Mus musculus with 23 samples.

Results

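The genes described here are those of the 4 Hox clusters, followed through the first 36 h in which mouse epiblast-like cells respond to BMP4 and WNT3A with or without their own Wnt3. They were chosen by name: every probe set whose platform annotation gives a single gene with a symbol of Hox, a cluster letter from a to d and a number. This takes 48 of the 45101 probe sets, for 33 Hox genes among the 18194 genes that a probe set names alone. Cluster a on chromosome 6 gave 9 genes, cluster b on chromosome 11 gave 9, cluster c on chromosome 15 gave 7 and cluster d on chromosome 2 gave 8. Other genes of the clusters were not analysed here.

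Epiblast-like cells stand in culture for the epiblast just before gastrulation, and here they came from male C57BL/6 embryonic stem cells with Activin A, bFGF and serum replacement. The cells were Wnt3-/- (KO) or Wnt3+/+ (WT), and in both genotypes they carried the BV transgene, a membrane-targeted Venus driven by Blimp1 regulatory elements. They were then cultured as floating aggregates with serum replacement and LIF. The conditions were KO with BMP4 and WNT3A together, KO with WNT3A, KO with BMP4, KO without cytokine, WT with WNT3A, WT with BMP4 and WT without cytokine, each at 12, 24 and 36 h, besides both genotypes at 0 h. BMP4 was given at 500 ng/ml and WNT3A at 50 ng/ml. Each of these 23 groups is 1 array of 1 line, so that genotype and line cannot be told apart and no single value has a replicate. The sources used here do not say how Wnt3 was deleted.

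Hox genes encode homeodomain transcription factors that give body segments their identity along the head to tail axis. Within a cluster, genes at the 3' end carry low paralogue numbers and are switched on first, in the primitive streak, and act toward the head. Genes at the 5' end carry high numbers and come on later and further toward the tail. WNT signalling is known to act upstream of the genes at the 3' end, and the Cdx factors upstream of Hox genes in the posterior embryo. Retinoic acid drives many of the 3' genes in the hindbrain and spinal cord.

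The labels of 6 KO arrays disagree with each other, and this touches many of the results. Those titled BMP4+WNT3A carry an array name with WNT3A alone, and those titled WNT3A one with both. Groups follow the titles here. The BMP target Id1 read 5480.2, 7591 and 9345 at 12, 24 and 36 h in KO titled WNT3A and 186, 256 and 1323 in KO titled BMP4+WNT3A. It read 5557, 8192 and 10156 in KO with BMP4 and 145, 177 and 224 in KO without cytokine, so that the arrays titled WNT3A carried the BMP response and those titled BMP4+WNT3A read near the untreated cells at 12 and 24 h. Sp5, a direct WNT target, read 1046, 2149.8 and 5833 in KO titled BMP4+WNT3A, 815, 488 and 1269 in KO titled WNT3A, 31.1, 20.1 and 15.9 in KO with BMP4 and 27.3, 26 and 24.8 in KO without cytokine. The Wnt3 probe set read at most 27.9 on the KO arrays and reached 146 in WT with BMP4 at 36 h. Before culture with cytokines the value was 16.2 in KO and 10.4 in WT cells, and whether its probes lie in the deleted part is not stated. Array medians lay between 36.8 and 41.4. The signal ratio of the Gapdh 3' to 5' control probe sets, a sign of RNA length, was 4.03 in WT with WNT3A at 24 h, 2.68 in KO without cytokine at 24 h and 2.30 in WT without cytokine at 36 h, and between 1.09 and 1.71 elsewhere.

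The 4 stretches of promoter below were picked because they belong to a 3' gene of cluster b and a 3' gene of cluster a that rose in the same conditions, to a central gene seen late, and to the cluster d counterpart of Hoxb1. Each is the 250 bases before the start in RefSeq's promoter table for GRCm38.p6, 5' to 3' on the strand of the gene. The Hoxb1 window is chr11:96365508-96365757 on the plus strand, the Hoxa2 window is chr6:52164832-52165081 on the minus strand, the Hoxa5 window is chr6:52204588-52204837 on the minus strand and the Hoxd1 window is chr2:74762730-74762979 on the plus strand. Capitals mark matches to 5 motifs searched on both strands.
Hoxb1: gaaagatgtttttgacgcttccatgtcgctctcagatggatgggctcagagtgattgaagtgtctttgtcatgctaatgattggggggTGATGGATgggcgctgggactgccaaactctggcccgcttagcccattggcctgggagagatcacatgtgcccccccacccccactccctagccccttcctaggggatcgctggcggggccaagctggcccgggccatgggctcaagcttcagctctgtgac
Hoxa2: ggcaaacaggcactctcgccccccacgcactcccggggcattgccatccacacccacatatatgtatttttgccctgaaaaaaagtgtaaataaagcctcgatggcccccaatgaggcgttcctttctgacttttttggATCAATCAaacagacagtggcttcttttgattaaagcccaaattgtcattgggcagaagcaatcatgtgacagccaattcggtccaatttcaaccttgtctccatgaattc
Hoxa5: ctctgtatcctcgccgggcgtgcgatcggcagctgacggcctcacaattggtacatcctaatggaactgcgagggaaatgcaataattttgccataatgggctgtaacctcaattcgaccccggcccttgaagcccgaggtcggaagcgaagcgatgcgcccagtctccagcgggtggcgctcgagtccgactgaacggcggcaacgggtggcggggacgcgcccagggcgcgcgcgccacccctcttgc
Hoxd1: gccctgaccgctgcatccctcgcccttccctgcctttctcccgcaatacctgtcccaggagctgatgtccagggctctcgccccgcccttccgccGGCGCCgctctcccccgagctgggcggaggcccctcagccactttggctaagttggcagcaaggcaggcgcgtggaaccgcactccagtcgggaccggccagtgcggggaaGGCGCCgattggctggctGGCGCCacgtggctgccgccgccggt
In Hoxb1 the match at 162 bases before the start is TGATGGAT, one form of the PBX-HOX letters TGATNNAT, through which Hox proteins bind together with PBX partners. In Hoxa2 the match at 111 bases before the start is ATCAATCA, the same motif read on the opposite strand. The Hoxd1 window holds the SMAD letters GGCGCC at 155, 44 and 26 bases before the start, and the Hoxa5 window holds no match. Of 32851 promoters in the table, taken over the same 250 bases, 7.68% hold the PBX-HOX letters and 9.59% the SMAD letters. The other motifs searched were the TCF/LEF letters CTTTGA, in 13.8% of promoters, the CDX letters TTTATG, in 10.8%, and the TATA box TATAAA, in 12.4%. A match in a window is a description of its letters and no test of binding. Of the 33 members 19 have a promoter in the table.

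Genes were counted by cluster as ever giving a signal above 100 by any of their probe sets. This mark was set for this description on the linear scale of the deposited values. The upper quartile of all probe sets lay between 226 and 292 on the arrays, so a signal above 100 is common. The share of all genes above the mark was not counted. Counts above 100, here and below, are therefore descriptions and no trait of these genes. In cluster a 4 of 9 genes passed it on at least 1 array (Hoxa2, Hoxa3, Hoxa5 and Hoxa7), in cluster b 4 of 9 (Hoxb1, Hoxb2, Hoxb3 and Hoxb9), in cluster c 1 of 7 (Hoxc6) and in cluster d 1 of 8 (Hoxd9). The other 23 genes never did, and their highest signals ran from 5.62 for Hoxc9 to 87.4 for Hoxa9. Just above the mark were Hoxd9 at 132 and Hoxa7 at 162, and just below it Hoxa9 at 87.4, Hoxb5 at 86.8 and Hoxa11 at 86.2. Signals of different probe sets are not on one scale, since probes bind with different strength, and no gene is set against another by level.

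At 0 h 3 of the 33 genes were above 100 in KO and in WT cells alike (Hoxa5, Hoxa7 and Hoxc6). Hoxa5 and Hoxc6 were so by their brightest probe set alone. The other probe set of Hoxa5 read 5.54 in KO and 2.48 in WT cells. The others of Hoxc6 read 73.0 and 2.08 in KO and 50.2 and 3.10 in WT cells. At 36 h the number of genes above 100 was 6 in KO titled BMP4+WNT3A and 4 in KO titled WNT3A. It was 2 in KO with BMP4 and 2 in KO without cytokine. In WT cells it was 9 with WNT3A, 7 with BMP4 and 4 without cytokine. In KO with BMP4 and in KO without cytokine the 2 genes were Hoxa5 and Hoxc6, again by their brightest probe sets alone. The heat map of the 33 genes gives the whole picture by cluster.

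**Figure D1:**
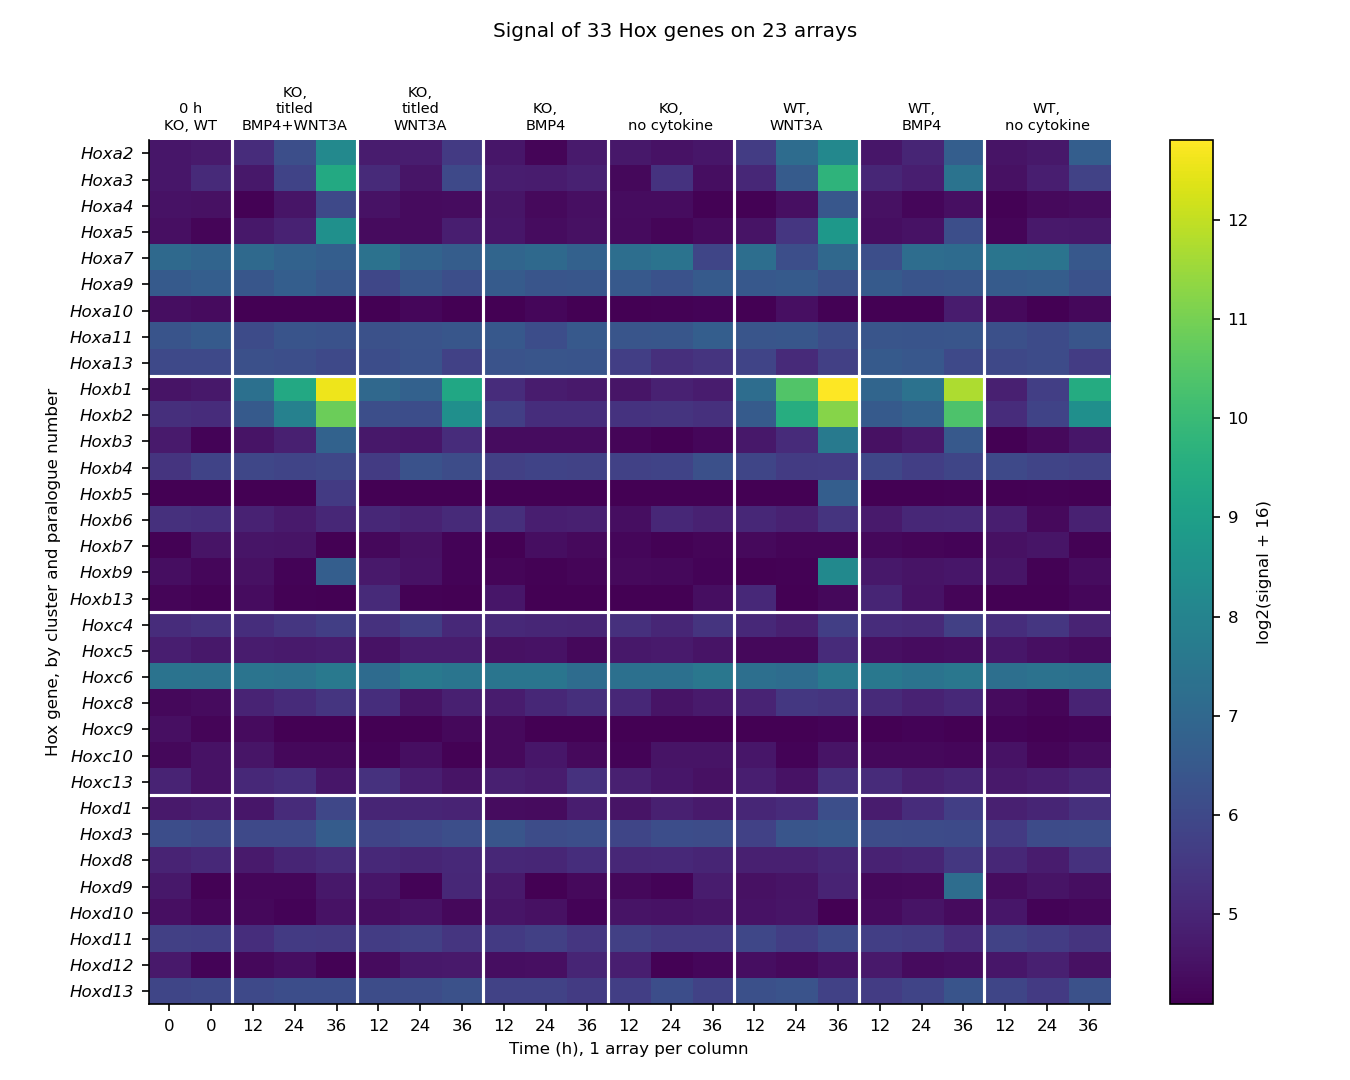
Signal of the 33 Hox genes on all 23 arrays, each gene by the probe set with its highest single reading, in colour as log2(signal + 16). Rows run by cluster and paralogue number, and columns by condition, with the 0 h arrays first and the hours of culture below each column. The 3' genes of clusters a and b brighten at 36 h in KO titled BMP4+WNT3A, in WT with WNT3A and in WT with BMP4. Hoxb1 and Hoxb2 also brighten at 36 h in KO titled WNT3A and, with Hoxa2, in WT without cytokine. Rows such as Hoxa11 and Hoxc6 keep nearly 1 colour throughout.

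Hoxb1, which gives rhombomere 4 of the hindbrain its identity and is among the first Hox genes on in the primitive streak, ran from 7.46 to 7132 over the 23 arrays. It read 143, 635 and 6123 at 12, 24 and 36 h in KO titled BMP4+WNT3A and 115, 93.7 and 609 in KO titled WNT3A. In KO with BMP4 it read 20.7, 10.6 and 9.71, and in KO without cytokine 7.94, 13.4 and 10.9. These 2 KO conditions never passed 20.7, and the level at 0 h was 7.46 in KO and 9.06 in WT cells. In WT with WNT3A it read 133, 1361 and 7132, in WT with BMP4 105, 149 and 3373 and in WT without cytokine 12.9, 36.3 and 689.8. At 36 h the 3 WT arrays and the 2 KO arrays whose titles include WNT3A lay at 609 or higher, and the other 2 KO arrays at 10.9 or lower. In such bulk samples fewer cells of a type and less RNA per cell cannot be told apart.

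Hoxb2, the neighbour of Hoxb1 and its known target in rhombomere 4, had the same order of conditions at 36 h. It read 77.2, 228 and 1846 in KO titled BMP4+WNT3A and 57.3, 55.7 and 326 in KO titled WNT3A. In KO with BMP4 it read 36.5, 21.7 and 21.3 and in KO without cytokine 25.5, 26.5 and 22.9, against 22 in KO cells at 0 h. The WT arrays read 79.3, 714 and 2385 with WNT3A, 77.7, 95 and 1314 with BMP4 and 20.4, 41.9 and 331 without cytokine. At 36 h untreated WT cells and KO titled WNT3A lay side by side for Hoxb1 and for Hoxb2, and with 1 array each their order carries no weight.

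Hoxa2, which patterns the second pharyngeal arch and the hindbrain, read 20.8, 56.5 and 276 in KO titled BMP4+WNT3A and 10.6, 11.5 and 30.9 in KO titled WNT3A. It stayed between 2.62 and 10.4 in KO with BMP4 and in KO without cytokine. In WT cells it read 34.3, 126 and 272 with WNT3A, 8.34, 15.9 and 86.8 with BMP4 and 7.21, 8.88 and 86.2 without cytokine. WT cells with WNT3A were the only ones to pass 100 at 24 h, and the BMP4 and untreated WT arrays lay side by side at 36 h. Hoxd1, the only gene of paralogue group 1 measured besides Hoxb1, reached 45.6 in KO titled BMP4+WNT3A, 57.3 in WT with WNT3A, 36.5 in WT with BMP4 and 23.3 in WT without cytokine at 36 h.

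Of the genes of paralogue group 3, Hoxb3 and Hoxa3, which act in the hindbrain and in the pharyngeal organs, were seen mainly at 36 h. By its brighter probe set Hoxb3 read 7.31, 13 and 98.4 in KO titled BMP4+WNT3A, 9.38, 8.63 and 20.3 in KO titled WNT3A, 4.66, 4.63 and 4.66 in KO with BMP4 and 2.68, 1 and 2.75 in KO without cytokine. In WT cells it read 9.0, 19.8 and 189 with WNT3A, 6.15, 9.65 and 75.1 with BMP4 and 1, 3.78 and 8.57 without cytokine, so that the arrays high at 36 h were the same as for Hoxa2 save the untreated WT cells. Hoxa3 has 4 probe sets, and they differ. The one of widest range read 9.32, 41.4 and 648 in KO titled BMP4+WNT3A, 17.5, 79.3 and 843 in WT with WNT3A and 16.4, 12.5 and 155 in WT with BMP4, and at 36 h 49.2 in KO titled WNT3A, 13.8 in KO with BMP4, 5.43 in KO without cytokine and 39.4 in WT without cytokine. The probe set of highest mean, which stands for the gene in the tests, read 139 in KO titled BMP4+WNT3A and 171 in WT with WNT3A at 36 h and between 16.4 and 53.4 elsewhere. The other two kept between 1.10 and 15.8 and between 13.4 and 35.5 on every array. Hoxd3, which shapes the first vertebrae, ran from 31.1 to 81.6.

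**Figure D2:**
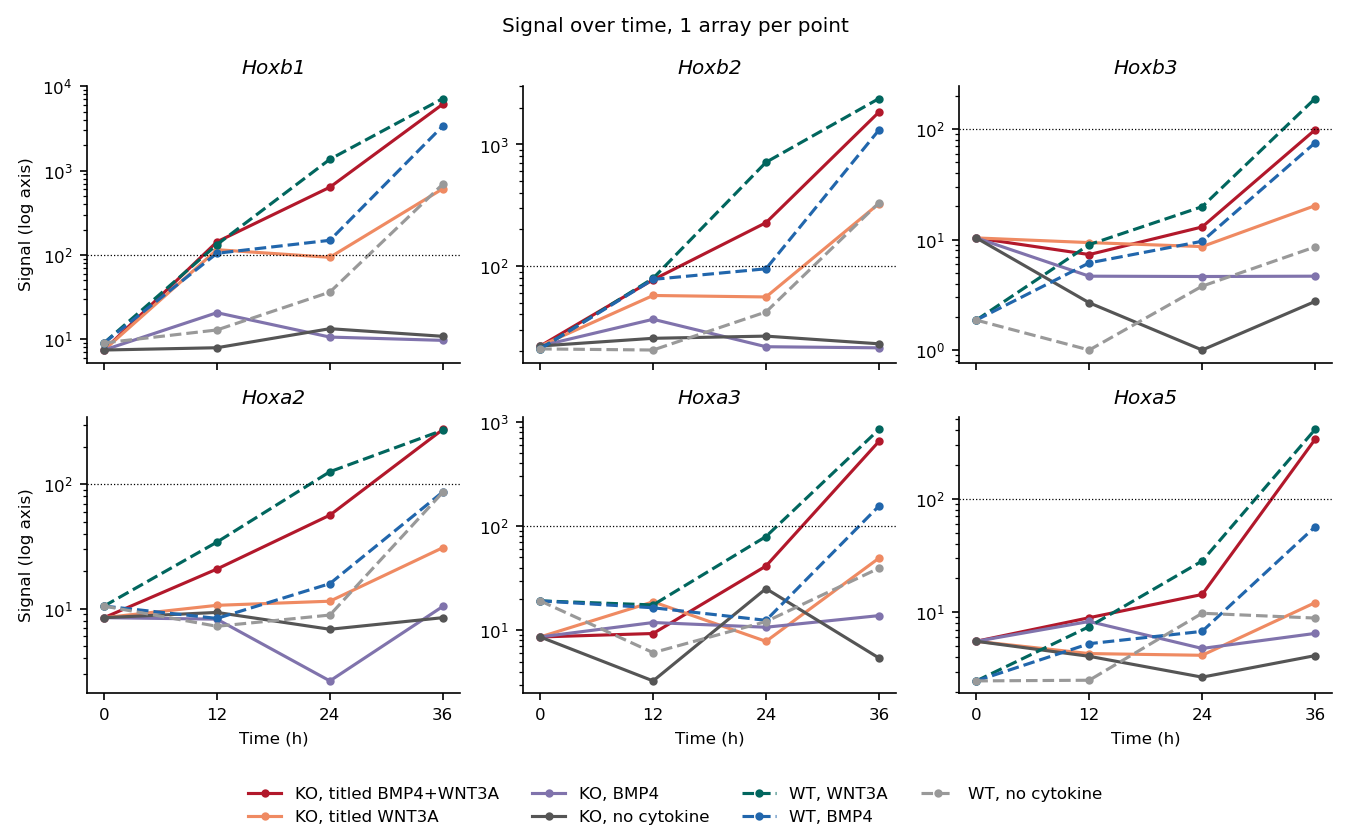
Deposited signal (log axis) against hours of culture for Hoxb1, Hoxb2, Hoxb3, Hoxa2, Hoxa3 and Hoxa5, the last 2 by their probe set of widest range, with 1 line per condition, solid for KO and dashed for WT, and 1 array per point. The dotted line marks a signal of 100. KO with BMP4 and KO without cytokine stay flat for Hoxb1 and Hoxb2, whereas the WT conditions and KO titled BMP4+WNT3A climb to 36 h.

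The central genes came up mainly at 36 h and on few arrays. Hoxa5, which acts in lung and neck vertebrae, read 8.94, 14.3 and 333 in KO titled BMP4+WNT3A, 7.46, 28.2 and 407 in WT with WNT3A and 5.28, 6.77 and 56.5 in WT with BMP4 by the dimmer of its 2 probe sets, and at most 12.1 elsewhere. Its brighter probe set lay between 151 and 311 on all arrays, with 276 in KO titled BMP4+WNT3A and 311 in WT with WNT3A at 36 h. The maker names the brighter one (x_at) as able to bind other transcripts too, and whether it did was not tested. At 36 h Hoxa4, a gene of the neck vertebrae, by its brighter probe set read 48.2 in KO titled BMP4+WNT3A and 71 in WT with WNT3A and at most 7.94 elsewhere. Hoxb5 read 31.3 in KO titled BMP4+WNT3A and 86.8 in WT with WNT3A at 36 h and at most 1.66 elsewhere. Hoxa4 and Hoxb5 were thus high on the same 2 arrays, and Hoxa5 on these and, less so, in WT with BMP4. The gene spans of Hoxa3 and Hoxb3 in the RefSeq table take in Hoxa4 and Hoxa5, and Hoxb4, so that overlapping transcripts cannot be told apart here.

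Hoxb9, a gene of the rib cage and the most posterior member of cluster b to appear, read 6.50, 1.83 and 86.8 in KO titled BMP4+WNT3A and 1.29, 1.66 and 284 in WT with WNT3A, and at most 9.99 on all other arrays. Hoxd9, which acts in limbs and in lumbar motor neurons, read 3.27, 4.0 and 132 in WT with BMP4 and at most 17.6 elsewhere. It was the only member above 100 in WT with BMP4 at 36 h and not in WT with WNT3A, where it read 15, and this rests on 1 array. Between these, Hoxb4 by its brighter probe set ran from 25.8 to 62.2, Hoxb6 from 3.94 to 25.8 and Hoxb7 from 1 to 8 over all 23 arrays, with no rise to 100 in any condition. A probe set that names both Hoxb8 and Hoxb7, outside the members, did read 175 in WT with WNT3A and 57.7 in KO titled BMP4+WNT3A at 36 h.

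**Figure D3:**
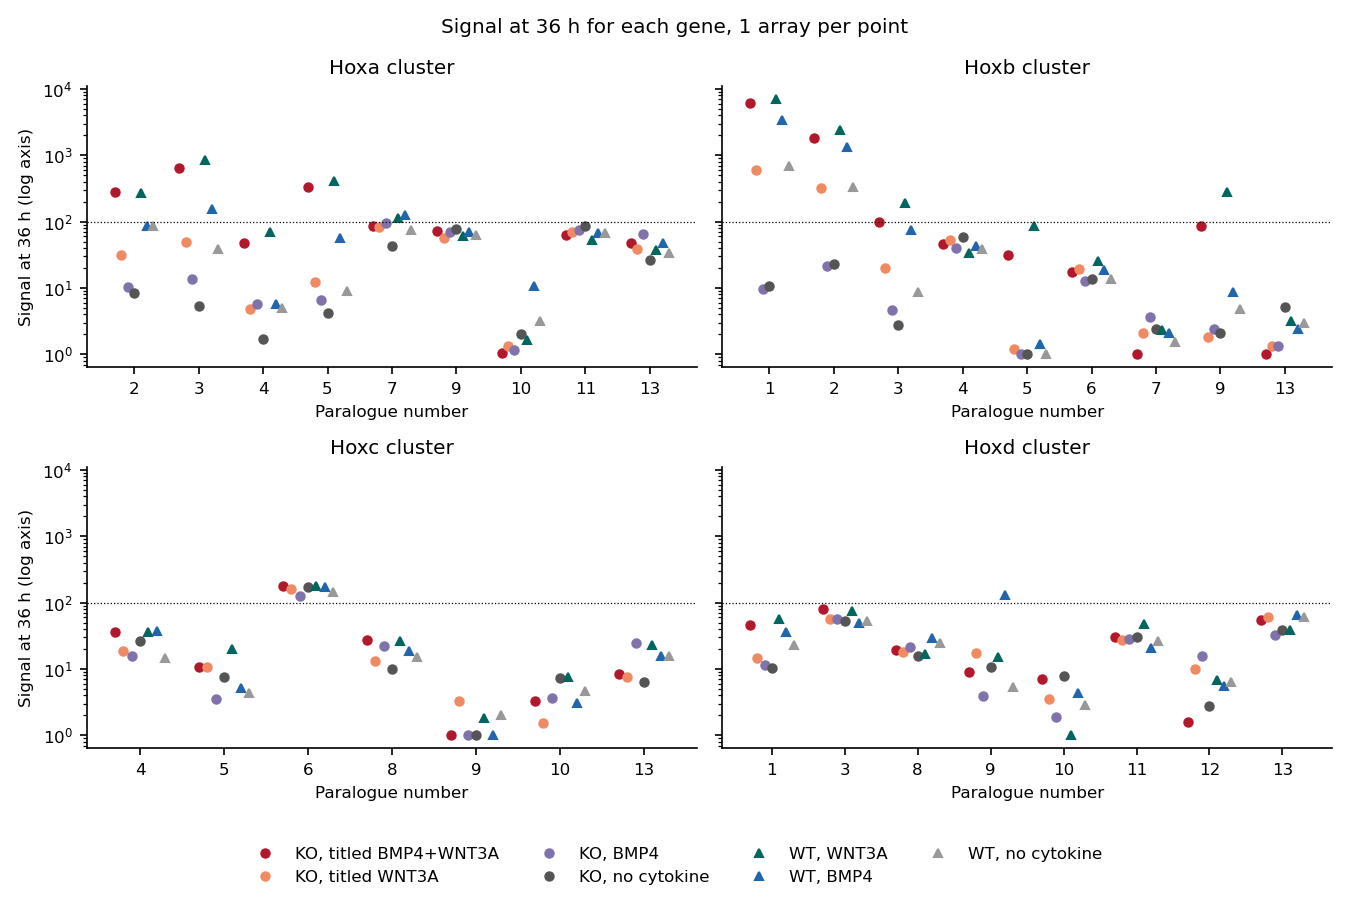
Deposited signal at 36 h (log axis) by gene, with the genes of each cluster in order of paralogue number, 1 point per gene and array, by the probe set with the highest single reading. Circles are KO and triangles WT, and the dotted line marks a signal of 100. Points are to be compared within a gene, not between genes: for Hoxb9 KO titled BMP4+WNT3A and WT with WNT3A stand above the other arrays, and for Hoxd9 WT with BMP4 does, while the points of Hoxc6 lie together.

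The remaining members kept a narrow range or stayed dim. Hoxc6, a gene of thoracic segments, by the brightest of its 3 probe sets lay between 124 and 181 on all 23 arrays. Its other probe sets ran from 44.0 to 75.1 and from 1 to 10.3. Hoxa7, also of thoracic segments, lay between 43.7, in KO without cytokine at 36 h, and 162, with 15 arrays above 100. By its brighter probe set Hoxa9, a regulator of blood stem cells, ran from 46.2 to 87.4 and Hoxa11, of the forearm and kidney, from 51.3 to 86.2. Hoxd11 ran from 20.4 to 48.2 and Hoxd13, of the digits, from 32 to 65.8 by its brighter probe set. Hoxa10, Hoxb13, Hoxc4, Hoxc5, Hoxc8, Hoxc9, Hoxc10, Hoxc13, Hoxd8, Hoxd10 and Hoxd12 never passed 37.8. For those genes the readings lie near or below the array medians, and the files carry no detection calls, so a dim reading was not told apart from absence.

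For the tests, a gene had to exceed the array median on at least 3 arrays, and 13256 genes did. Of the 33 members 15 passed: Hoxa2, Hoxa3, Hoxa5, Hoxa7, Hoxa9, Hoxa11, Hoxa13, Hoxb1, Hoxb2, Hoxb3, Hoxb4, Hoxc6, Hoxd3, Hoxd11 and Hoxd13. Hoxa2, Hoxb1, Hoxb2 and Hoxb3 passed only through the arrays where they were high, and Hoxa4, Hoxb5, Hoxb9, Hoxd1 and Hoxd9 were not tested. Differences and slopes are in log2(signal + 16) with the standard error of limma, and adjusted p-values are Benjamini-Hochberg over all 13256 genes. The times stand in for replicates.

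The slope of a gene over 12 to 36 h was tested within each condition. In WT with WNT3A 5 of the 15 tested members rose, against a background of 10.1% of all genes called in either direction. They were Hoxb1 with a slope of 2.77 ± 0.37 per 12 h (adjusted p = 0.000887), Hoxb2 with 2.29 ± 0.33 (adjusted p = 0.00116), Hoxb3 with 1.45 ± 0.20 (adjusted p = 0.000961), Hoxa2 with 1.18 ± 0.20 (adjusted p = 0.00284) and Hoxa3 with 0.83 ± 0.19 (adjusted p = 0.0143). In KO titled BMP4+WNT3A 5 members also rose, against 9.47% of all genes, among them Hoxb1 with 2.60 ± 0.37 (adjusted p = 0.00127) and Hoxa2 with 1.40 ± 0.20 (adjusted p = 0.00119). The others were Hoxb2 with 2.10 ± 0.33, Hoxb3 with 1.09 ± 0.20 and Hoxa3 with 0.72 ± 0.19. Hoxa2, Hoxb1, Hoxb2 and Hoxb3 entered the test through the arrays where they were high. The counts of called members and the medians over the 15 are therefore descriptions only, here and in all comparisons below. Without the filter 10 members were called in WT with WNT3A, beside 1147 of 18194 genes in all, with Hoxa4, Hoxb5 and Hoxb9 among them.

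In WT with BMP4 4 members rose, against 14.9% of all genes: Hoxb1 by 2.33 ± 0.37 per 12 h (adjusted p = 0.00238), Hoxb2 by 1.83 ± 0.33, Hoxa2 by 1.02 ± 0.20 and Hoxb3 by 1.00 ± 0.20 (adjusted p = 0.0078). In WT without cytokine 3 rose, against 4.16% of all genes, namely Hoxb1 by 2.26 ± 0.37 (adjusted p = 0.00548), Hoxb2 by 1.57 ± 0.33 and Hoxa2 by 1.06 ± 0.20. Without its own 36 h array, which has the Gapdh ratio of 2.30, WT without cytokine had none, with a Hoxb1 slope of 1.44. The same step left none in WT with BMP4, where Hoxb1 then had 0.86, none in KO titled BMP4+WNT3A, where it had 2.70, and Hoxb1, Hoxb2 and Hoxa2 in WT with WNT3A, where it had 4.07. That step leaves few calls over the whole table too: 10 of the 13256 genes in WT without cytokine, 1 in WT with BMP4, 0 in KO titled BMP4+WNT3A and 59 in WT with WNT3A, so the lost calls say nothing particular about the Hox genes.

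In the other 3 KO conditions no member passed. In KO titled WNT3A Hoxb1 had a slope of 1.09 ± 0.37 (adjusted p = 0.148) and Hoxb2 one of 1.08 ± 0.33 (adjusted p = 0.104), with 2 members at an unadjusted p under 0.05 and 2.86% of all genes called. In KO with BMP4 Hoxb1 had -0.26 ± 0.37, with 0 members at an unadjusted p under 0.05 and 1.4% of all genes called. In KO without cytokine it had 0.10 ± 0.37, with 1 member at an unadjusted p under 0.05 and 2.96% of all genes called. Without WT with WNT3A at 24 h, the array of highest Gapdh ratio, Hoxb2 was called in KO titled WNT3A, with 429 genes called in all. In KO without cytokine Hoxa7 was then called, with 423 genes in all. This was a fall, with readings of 136, 154 and 43.7 at 12, 24 and 36 h. The median slope of the 15 tested members was 0.09 in WT with WNT3A, against -0.02 over all tested genes, and 0.02 in KO without cytokine, against -0.01. With each probe set tested by itself, the Hoxa3 probe set of widest range had a slope of 2.26 ± 0.36 in KO titled BMP4+WNT3A (adjusted p = 0.00346) and 2.28 ± 0.36 in WT with WNT3A (adjusted p = 0.00306). The dimmer Hoxa5 probe set had 1.81 ± 0.29 in KO titled BMP4+WNT3A (adjusted p = 0.00383) and 2.01 ± 0.29 in WT with WNT3A (adjusted p = 0.00202). Both of these probe sets passed the filter only through the arrays where they were high, so their calls are descriptions only.

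**Figure D4:**
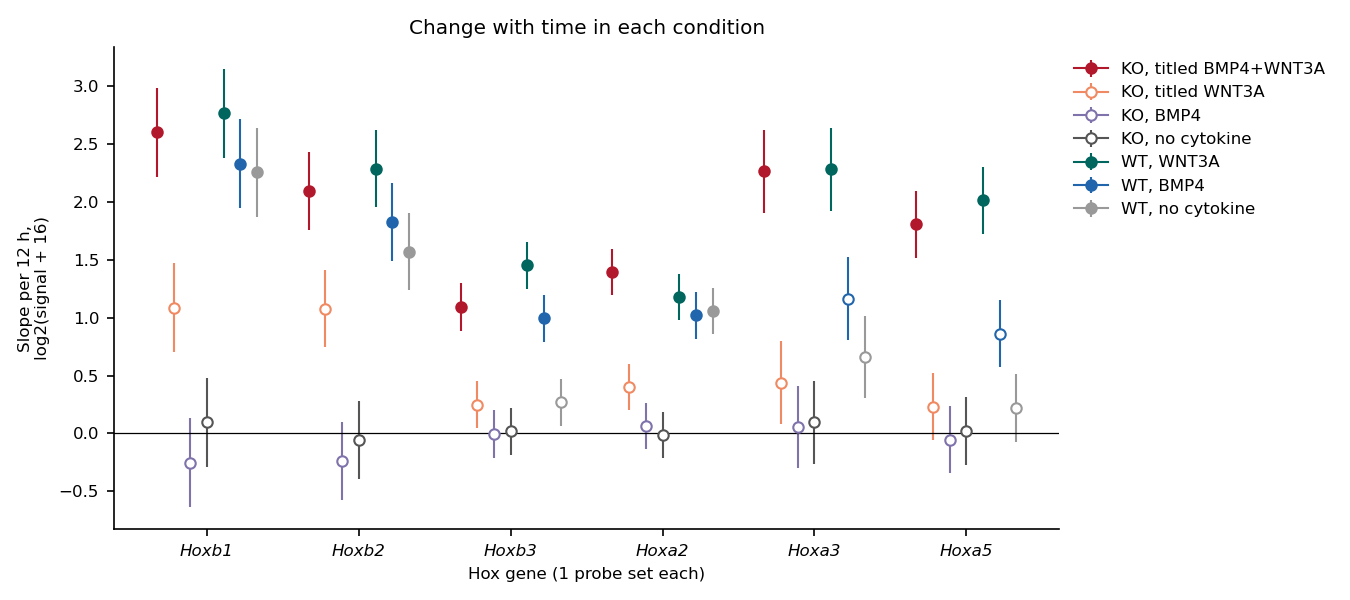
Slope per 12 h in log2(signal + 16) of 6 Hox genes in each of the 7 conditions, from the fit of each probe set by itself, with bars of 1 standard error and filled points for adjusted p under 0.05. Hoxb1, Hoxb2 and Hoxa2 have filled points in KO titled BMP4+WNT3A and in all 3 WT conditions, and none of the 6 genes has one in the other KO conditions. All 6 probe sets entered the fit through arrays where they were high, so filled points are descriptions only.

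The comparison of KO with WT cells under BMP4 asks what the Hox genes do with the cytokine when the cells lack their own Wnt3. At 36 h Hoxb1 read 9.71 in KO with BMP4 and 3373 in WT with BMP4, a difference of -7.04 in log2(signal + 16), and Hoxb2 read 21.3 in KO with BMP4 and 1314 in WT with BMP4. Of the 48 probe sets 5 were lower by at least 2 log2 units in KO on these single arrays (Hoxa3, Hoxb1, Hoxb2, Hoxb3 and Hoxd9), against 0.624% of all 34958 single-gene probe sets. Single arrays carry no test, and this limit was chosen after seeing the data. As a mean over the 3 times, Hoxb1 was the only member of 15 called, at -3.83 ± 0.95 (adjusted p = 0.0216), with 7.23% of all genes called. Hoxb2 had -2.52 ± 0.78 (adjusted p = 0.063). Hoxb1 kept its sign at each time but was not called without 24 h (-4.41, adjusted p = 0.234), without 36 h (-2.24, adjusted p = 0.0725) or when the 6 KO arrays of doubtful label were left out (-3.83, adjusted p = 0.0537). Among all genes tested, 7, 846 and 561 genes were called in these fits, against 958 with all arrays, so that without 24 h calls were lost nearly everywhere. The slope of Hoxb1 also differed, by -2.59 ± 0.53 per 12 h (adjusted p = 0.0459), again as the only member, with 0.988% of all genes called. Without the 36 h array of WT with BMP4 that difference was -1.11 (adjusted p = 0.999) and 0 genes of the table were called. Without WT with WNT3A at 24 h Hoxb2 was called beside Hoxb1, with 152 genes called in all against 131.

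Without cytokine the genotypes stood in the same order at 36 h. Hoxb1 read 10.9 in KO and 689.8 in WT cells, and 3 of 48 probe sets (Hoxa2, Hoxb1 and Hoxb2) were at least 2 log2 units lower in KO, against 0.277% of all probe sets. At 12 h it had read 7.94 in KO and 12.9 in WT cells, so the gap came with time. As a mean over times no member passed, with Hoxb1 at -1.92 ± 0.95 (adjusted p = 0.424), 1 member at an unadjusted p under 0.05 and 0.0981% of all genes called. The difference of slopes called no member either, with Hoxb1 at -2.16 ± 0.53 (adjusted p = 0.183), 3 members at an unadjusted p under 0.05 and 0.189% of all genes called.

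The next comparisons set each cytokine against no cytokine in KO cells and share the untreated KO arrays. In KO titled BMP4+WNT3A 4 of 15 members were higher as a mean over times, against 6.77% of all genes called. They were Hoxb1 with 4.99 ± 0.95 (adjusted p = 0.00445), Hoxb2 with 3.03 ± 0.78 (adjusted p = 0.0281), Hoxa2 with 1.87 ± 0.44 (adjusted p = 0.0177) and Hoxa13 with 0.64 ± 0.18 (adjusted p = 0.039). Without 24 h none of the 4 was called, with Hoxb1 at 5.26 (adjusted p = 0.192), and without 36 h only Hoxb1 was, at 3.60. Among all genes tested, 0 genes were called without 24 h and 769 without 36 h, against 898 with all arrays, so the loss without 24 h is not one of Hox genes in particular. Without the 3 arrays of highest Gapdh ratio, of which 1 is untreated KO cells at 24 h, Hoxb1 alone was called, at 5.37, with 415 genes called in all. The median difference of the 15 tested members was 0.19, against -0.02 over all tested genes. Because Hoxa2, Hoxb1, Hoxb2 and Hoxb3 entered the test through the arrays where they were high, the count of 4 and this median are descriptions only. The difference of slopes called Hoxa2 alone, at 1.41 ± 0.28 per 12 h (adjusted p = 0.0408), with 0.973% of all genes called, while Hoxb1 had 2.51 ± 0.53 (adjusted p = 0.0504). Without WT with WNT3A at 24 h, or without WT with BMP4 at 36 h, Hoxb1 and Hoxb2 were called as well, with 182 and 194 genes called in all against 129. At 36 h 7 probe sets were at least 2 log2 units higher (Hoxa2, Hoxa3, Hoxa5, Hoxb1, Hoxb2, Hoxb3 and Hoxb9), against 0.99% of all probe sets, with 7.84 for Hoxb1 and 2.51 for Hoxb9. If the labels of the 6 arrays are exchanged, these values belong to WNT3A alone.

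In KO titled WNT3A only Hoxa13 passed as a mean over times, at 0.60 ± 0.18 (adjusted p = 0.0428), with 9.51% of all genes called, and Hoxb1 had 2.95 ± 0.95 (adjusted p = 0.0614). At 36 h 2 probe sets, Hoxb1 at 4.54 and Hoxb2 at 3.14, were at least 2 log2 units higher, against 0.532% of all probe sets. In KO with BMP4 the only call was again Hoxa13, at 0.85 ± 0.18 (adjusted p = 0.0402), with 0.558% of all genes called. Hoxb1 had 0.13 ± 0.95 there, and no probe set was 2 log2 units higher at 36 h, against 0.106% of all probe sets.

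Hoxa13, which patterns the digits and the hindgut, was called in those comparisons and never passed 77.7. It read 58.9, 57.3 and 47.8 in KO titled BMP4+WNT3A, 54.9, 61.4 and 38.9 in KO titled WNT3A, 63.6, 67.6 and 66.3 in KO with BMP4 and 36.3, 22.8 and 26 in KO without cytokine. In WT it read 42.8, 19.3 and 37.5 with WNT3A, 77.7, 71.5 and 47.8 with BMP4 and 47.2, 51.6 and 33.8 without cytokine. Its lowest readings were in WT with WNT3A at 24 h and KO without cytokine at 24 h, the arrays with the 2 highest Gapdh ratios. Without the 3 arrays of highest ratio the difference from KO without cytokine was 0.49 in KO titled BMP4+WNT3A, 0.44 in KO titled WNT3A and 0.69 in KO with BMP4, and none was called. None was called either without any 1 of the 3 times, but without 24 h the whole table gave only 0, 102 and 0 calls in these comparisons.

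The arrays titled with both cytokines were also set against KO with BMP4, which shares the deletion and the BMP4 named in the title. The summed signal of 10 BMP response genes ran from 2554 to 5049 in the arrays titled with both and from 11939 to 22672 in KO with BMP4. The comparison may therefore not hold BMP4 constant. Hoxb1 was higher by 4.85 ± 0.95 (adjusted p = 0.00462), Hoxb2 by 3.02 ± 0.78 (adjusted p = 0.025) and Hoxa2 by 1.95 ± 0.44 (adjusted p = 0.0115), which makes 3 of 15 members against 7.74% of all genes called. These 3 entered the test through the arrays where they were high, so the count is a description only. Without 24 h none was called, with Hoxb1 at 4.99 (adjusted p = 0.176), and without 36 h only Hoxb1 was. Among all genes tested, 12 genes were called without 24 h and 645 without 36 h, against 1026 with all arrays. With the 6 labels exchanged no member was called, with Hoxb1 at 2.81 and 527 genes called in all. Between KO titled BMP4+WNT3A and KO titled WNT3A, the 2 sets of conflicting labels, no member passed as a mean over times, with 2 at an unadjusted p under 0.05 and 0.339% of all genes called. Hoxb1 stood 2.04 ± 0.95 higher in the arrays titled with both (adjusted p = 0.667), and at 36 h Hoxb1, Hoxb2, Hoxb3, Hoxa2, Hoxa3, Hoxa5 and Hoxb9 all read higher there. The difference of slopes called no member, with 4 at an unadjusted p under 0.05 and 0.0604% of all genes called.

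In WT cells no member passed as a mean over times with either cytokine against none, comparisons that share the untreated WT arrays. With WNT3A 5 of 15 had an unadjusted p under 0.05, 0.483% of all genes were called, and Hoxb1 had 3.49 ± 0.95 (adjusted p = 0.125). Without 36 h Hoxa2 and Hoxb1 were called, in a fit that called 268 genes in all, against 64 with all times, 3 without 12 h and 0 without 24 h. With BMP4 2 of 15 had an unadjusted p under 0.05, 3.42% of all genes were called, and Hoxb1 had 2.04 ± 0.95 (adjusted p = 0.284). No difference of slopes was called with WNT3A, where 2 members had an unadjusted p under 0.05 and 0.558% of all genes were called, or with BMP4, where it was 2 members and 0.513%. At 36 h 8 probe sets were at least 2 log2 units higher with WNT3A (Hoxa3, Hoxa4, Hoxa5, Hoxb1, Hoxb2, Hoxb3, Hoxb5 and Hoxb9) and 2 with BMP4 (Hoxb1 and Hoxd9), each against 0.586% of all probe sets. For Hoxb1 these log2 differences were 3.34 with WNT3A and 2.26 with BMP4, and for Hoxb9 with WNT3A 3.85. The untreated WT cells had themselves reached 689.8 for Hoxb1 by then.

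The genes whose course over the 21 arrays from 12 to 36 h was most like that of Hoxb1 were ranked by Pearson's r of log2(signal + 16), as a description of arrays that share times and conditions. Among Hox genes Hoxb2 had r = 0.99, Hoxa2 0.94 and Hoxb3 0.90, while Hoxc6 had 0.04 and Hoxa11 -0.32. The 10 other genes ranked first were Cdx1 and Arid3b at 0.97, Klhl32 at 0.96, and Gprc5a, Sh3pxd2a, M1ap, Mfge8, Pdgfrb, Ripk3 and Mapkapk2 at 0.95. Hoxb2 thus ranked before every other gene tested, and Cdx1 next.

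The Cdx genes encode homeodomain factors that bind and activate Hox genes in the posterior embryo. All 3 rose with time in KO titled BMP4+WNT3A, in WT with WNT3A and in WT with BMP4, 1 of 3 rose in WT without cytokine, and none passed in the other KO conditions. Their summed signal was at most 41.2 in KO without cytokine and 38.7 in KO with BMP4. They too entered the test through the arrays where they were high, so these counts and the call of Cdx1 below are descriptions only. Over all genes 9.47% were called in KO titled BMP4+WNT3A, 10.1% in WT with WNT3A, 14.9% in WT with BMP4 and 4.16% in WT without cytokine. Cdx1 read 111, 317 and 2006 in KO titled BMP4+WNT3A, 52.7, 39.4 and 75.1 in KO titled WNT3A, 13, 18.5 and 15.6 in KO with BMP4 and 18.1, 25.1 and 13.5 in KO without cytokine. In WT cells it read 150.1, 744 and 2778 with WNT3A, 60.1, 153 and 1287 with BMP4 and 17.3, 18 and 282 without cytokine, the one Cdx gene called there, with a slope of 1.53 ± 0.29 (adjusted p = 0.0114). Cdx2 at 36 h read 422 in KO titled BMP4+WNT3A and 79.9 in KO titled WNT3A, against 484 in WT with WNT3A and 13.1 in WT without cytokine.

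Of 10 Hox cofactors, the PBX, MEIS and PREP proteins that bind DNA beside Hox proteins, 8 were tested. Meis2, Meis3 and Pknox2 rose in KO titled BMP4+WNT3A, in WT with WNT3A and in WT with BMP4, 3 of 8 against the same shares of all genes. In the other conditions 2 of 8 rose in KO titled WNT3A, against 2.86% of all genes, 1 in KO with BMP4, against 1.4%, 2 in KO without cytokine, against 2.96%, and 2 in WT without cytokine, against 4.16%. Meis2 read 171, 468 and 1009.9 in KO titled BMP4+WNT3A, 56.1, 63.6 and 82.1 in KO without cytokine and 164, 523 and 1053 in WT with WNT3A. Pknox2 rose in all 7 conditions, with 1.09 ± 0.14 per 12 h in KO with BMP4 (adjusted p = 0.00292) and 0.96 ± 0.14 in KO without cytokine (adjusted p = 0.00362). Pbx3 rose in KO without cytokine.

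Of 15 genes of the retinoic acid pathway 12 were tested, and 3 rose in KO titled BMP4+WNT3A, 3 in WT with WNT3A, 2 in WT with BMP4, where 1 fell, and 1 in each of the other 4 conditions, beside the shares of all genes given above. Aldh1a2, which makes retinoic acid, rose in KO titled BMP4+WNT3A (1.09 ± 0.25 per 12 h, adjusted p = 0.0162) and in WT with WNT3A (1.80 ± 0.25, adjusted p = 0.000901). At 36 h it read 324 in KO titled BMP4+WNT3A and 803 in WT with WNT3A. Those are the 2 arrays on which Hoxa4, Hoxa5, Hoxb5 and Hoxb9 were highest, and at 36 h it read at most 76.6 elsewhere. Cyp26a1, which breaks retinoic acid down, rose in 4 conditions and at 36 h read 271 in KO titled BMP4+WNT3A, 714 in KO titled WNT3A, 377 in WT with WNT3A and 1629 in WT with BMP4. Of 23 chromatin regulators of the clusters 22 were tested. In KO titled BMP4+WNT3A 1 fell, in WT with WNT3A 1 rose and 1 fell, in WT with BMP4 2 fell, and in the other 4 conditions none passed, with 9.47%, 10.1% and 14.9% of all genes called in the first 3. Cbx7, a Polycomb subunit, fell by 0.73 per 12 h in KO titled BMP4+WNT3A, by 0.96 in WT with WNT3A and by 0.95 in WT with BMP4, each with a standard error of 0.14. Jarid2 fell in WT with BMP4, by 0.55, and Cbx2 rose in WT with WNT3A, by 0.32 ± 0.09.

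Genes beside the clusters were looked at in the same way. Evx1, the homeobox gene next to Hoxa13 and a gene of the primitive streak, read 85.6, 89.3 and 1053 in KO titled BMP4+WNT3A, 639, 699 and 1978 in KO titled WNT3A, 18.6, 19.3 and 15.9 in KO with BMP4 and 17.9, 16.7 and 18.5 in KO without cytokine. In WT cells it read 72.5, 229 and 1418 with WNT3A, 685, 1499 and 4039.6 with BMP4 and 22.9, 25.6 and 170.1 without cytokine. Its highest reading was in WT with BMP4, and the 5' genes of cluster a next to it (Hoxa13, Hoxa11, Hoxa10 and Hoxa9) stayed below 100 on every array. Evx2, beside Hoxd13, ran from 133 to 189, and Skap1, beside Hoxb1, from 195 to 333. Skap2, at the other end of cluster a, rose in KO titled BMP4+WNT3A by 0.74 ± 0.14 per 12 h, in WT with WNT3A by 0.58 ± 0.14 and in WT with BMP4 by 0.56 ± 0.14.

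Some lists of cell type markers moved with the Hox genes and others did not. The part of the lists given here in these results was not tested, and a signal above 100 was common among all probe sets. Of 17 markers of the streak and posterior mesoderm 14 passed 100 in KO titled BMP4+WNT3A, 14 in KO titled WNT3A, 3 in KO with BMP4, 3 in KO without cytokine, 15 in WT with WNT3A, 16 in WT with BMP4 and 12 in WT without cytokine. Their summed signal ran over the 3 times from 5896 to 21984 in KO titled BMP4+WNT3A, from 4431 to 9983 in KO titled WNT3A, from 830 to 982 in KO with BMP4 and from 995 to 1248 in KO without cytokine. In WT cells it ran from 6244 to 26789 with WNT3A, from 4289 to 22719.7 with BMP4 and from 1364 to 10554 without cytokine. The conditions with low Hoxb1 throughout are those with the lowest sums. Otx2, an epiblast and forebrain gene, read 22.5 in KO titled BMP4+WNT3A, 25.3 in WT with WNT3A and 917 in KO without cytokine at 36 h. Tbx6, a gene of presomitic mesoderm, read 630.3 in KO titled BMP4+WNT3A and 1898 in WT with WNT3A at 36 h, the arrays on which Hoxa4, Hoxb5 and Hoxb9 were highest. As for the labelled cell type, Pou5f1 ran from 5914 to 9541 and Dnmt3b from 4039.6 to 12855.

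Other marker lists moved as well. Of 8 endoderm markers 5 passed 100 in KO titled BMP4+WNT3A, 5 in WT with WNT3A, 2 in WT with BMP4, 1 in WT without cytokine and 0 in the other KO conditions, while Ttr and Afp, which mark the yolk sac endoderm, read at most 32 and 18.3 on any array. Over the 3 times, lowest to highest, the endoderm sum ranged from 626 to 3145 in KO titled BMP4+WNT3A, from 275 to 337 in KO titled WNT3A, from 245 to 275 in KO with BMP4, from 249.7 to 325 in KO without cytokine, from 647 to 2180 in WT with WNT3A, from 296 to 463 in WT with BMP4 and from 273 to 1405 in WT without cytokine. Its highest values were in both conditions in which Hoxb9 was seen. The sum of 9 markers of the primed epiblast, the state the cells start from, ranged from 8153 to 16376 in KO titled BMP4+WNT3A, from 10242 to 13729 in KO titled WNT3A, from 18466 to 22723 in KO with BMP4, from 22129.7 to 25284 in KO without cytokine, from 7206 to 15976 in WT with WNT3A, from 5979.9 to 13272 in WT with BMP4 and from 14706 to 25259 in WT without cytokine. At 0 h it was 25266 in KO and 25393 in WT cells. The sum of 9 neural ectoderm markers did not follow Hoxb1. It ranged from 1859 to 2732 in KO titled BMP4+WNT3A and from 1171 to 1495 in KO titled WNT3A. In KO with BMP4 it ranged from 2349 to 3355, and in KO without cytokine from 2400 to 4507. In WT cells it ranged from 2066 to 3421 with WNT3A, from 917 to 1601 with BMP4 and from 2763 to 3938 without cytokine. The sum of 10 markers of lateral and extraembryonic mesoderm ranged from 1022 to 1552 in KO titled BMP4+WNT3A, from 1058 to 2655 in KO titled WNT3A, from 1004 to 1209 in KO with BMP4, from 762 to 925 in KO without cytokine, from 928 to 1475 in WT with WNT3A, from 1163 to 5853 in WT with BMP4 and from 912 to 1024 in WT without cytokine, and was highest in WT with BMP4, where Hoxd9 was seen. Of 6 fibroblast markers 2 or 3 passed 100 in every condition, with sums between 385 and 996, whereas Col1a1 and Postn read at most 18 and 13.7. Pdgfrb, also a fibroblast marker, went the other way and was among the 10 genes most like Hoxb1, at r = 0.95.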

How the data were processed

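RNA was hybridised to 23 Affymetrix mouse arrays. Per the labels, biotin-labelled target was made from amplified cDNA of total RNA. The authors deposited intensity values on a linear scale, whose floor of 1 holds 2.93% of them. The method behind them is not stated in the sources at hand. Groups follow sample titles. Names came from the platform annotation, in which 34958 probe sets have 1 gene, 932 several and 9211 none. A gene was represented by its probe set of highest mean. Values were turned into log2(value + 16), quantile normalized and kept where above the array median on at least 3 arrays.

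Models were fitted to 13256 genes with limma 3.58.1 in R 4.3.3 over the 21 arrays after 0 h. Means over times used 7 conditions with time as a block (12 residual degrees of freedom). Slopes used a linear course per condition and 1 shared curvature (6 residual degrees of freedom). The steps were tested on simulated data. No p-value measures spread between cultures, as there was 1 series of them. In the means the error is how far conditions differ in their course over the times, so a late climb in some conditions counts as error. In the slopes it is the departure from a straight line left after the shared curvature. A result was called at a Benjamini-Hochberg adjusted p under 0.05.

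The members, the gene lists and the tests were chosen with earlier results of these data known. Differences of slopes, the limit of 2 log2 units at 36 h and the fits without single arrays were added after seeing the data. Alternatives were other scalings, offsets of 1 and 64, other filters, probe set rules, no trend, array weights, each time left out, and changes to doubtful arrays. Members above a signal of 100 or past a test are given in full, others by range. The number of arrays limits the precision. Figures were drawn with matplotlib 3.10.9.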

Additional observations from a re-analysis of the deposited data

Results flagged for a closer look

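The slope of Hoxb1 under BMP4 differed between the genotypes by -2.59 ± 0.53 log2 units per 12 h (limma, adjusted p = 0.0459). It was -0.26 ± 0.37 in KO with BMP4 and 2.33 ± 0.37 in WT with BMP4. The difference kept its call in 7 of 15 alternative runs. Without the 36 h array of WT with BMP4 it was -1.11 and not called, with 0 genes called in the whole table. Hoxb1 also entered the test through the arrays where it was high.

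Data outside the named members also carried signal. A probe set that names both Hoxb8 and Hoxb7 read 175 in WT with WNT3A at 36 h, against 6.96 in WT without cytokine. In KO titled BMP4+WNT3A at 36 h it read 57.7, and on every other array at most 9.19. The probe set that names Hoxb7 alone ran from 1 to 8. The antisense transcript Hoxb5os, which lies in cluster b, read 202 in WT with WNT3A at 36 h, against 80.4 in WT without cytokine at 36 h, and between 66.7 and 133 on all arrays but the first. Its slope in WT with WNT3A was 0.62 ± 0.12 per 12 h (limma, adjusted p = 0.0077). Both were highest on the array where Hoxb5 and Hoxb9 were highest too.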

How the results depend on the processing

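No value of a Hox gene that was called in the main run changed direction under any alternative run. Values that were not called were not checked for this. Of 336 recomputed counts of called Hox genes 264 stayed within 1.5 times, and 72 did not; the cause was not tested unless fewer arrays or genes show it. Called means over times: KO with BMP4 against KO without cytokine, 1, gave 0 without the filter, with the filter at the 60th percentile, without the 3 arrays of highest Gapdh ratio, without the 6 KO arrays whose labels conflict, and 0 to 0 leaving out 1 time. KO with BMP4 against WT with BMP4, 1, gave 2 with offset 1, 0 with offset 64, 0 without the 6 arrays, and 0 to 2 leaving out 1 time. KO titled BMP4+WNT3A against KO with BMP4, 3, gave 0 with exchanged labels and 0 to 3 leaving out 1 time. Against KO without cytokine, 4, it gave 1 without the 3 arrays, 1 with exchanged labels and 0 to 3 leaving out 1 time. KO titled WNT3A against KO without cytokine, 1, gave 2 with offset 1 and with array weights, 0 without the filter, at the 60th percentile and without the 3 arrays, 4 with exchanged labels, and 0 to 0 leaving out 1 time. WT with WNT3A against WT without cytokine, 0, gave 0 to 2 leaving out 1 time.

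Differences of slopes: KO with BMP4 against WT with BMP4, 1, gave 2 as deposited, median centred, with array weights and without WT with WNT3A at 24 h, and 3 without the 3 arrays. It gave 0 with offset 64, no filter, the mean of probe sets, each probe set, no trend, no curvature, without the 6 arrays and without WT with BMP4 at 36 h. KO titled BMP4+WNT3A against KO without cytokine, 1, gave 3 as deposited, with offset 64, with array weights, without the 3 arrays and without either single array. It gave 0 with offset 1, no filter, the mean of probe sets, each probe set, no trend, no curvature and exchanged labels.

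Slopes: KO titled BMP4+WNT3A, 5, gave 3 at the 60th percentile, 0 with exchanged labels and 0 without its 36 h array. KO titled WNT3A, 0, gave 1 with array weights, 1 without the 3 arrays, 1 without WT with WNT3A at 24 h and 5 with exchanged labels. KO without cytokine, 0, gave 1 (Hoxa7, a fall) without the 3 arrays and without WT with WNT3A at 24 h. WT with WNT3A, 5, gave 10 without the filter, 3 at the 60th percentile and 3 without its 36 h array. WT with BMP4, 4, gave 0 without its 36 h array. WT without cytokine, 3, gave 0 without the 3 arrays, 1 without curvature and 0 without its 36 h array. Of the values of single genes, 355 of 437 kept their call. With no detection calls, dim readings limit what the tests can show of the 18 untested Hox genes. Calls over all genes moved as well: without 24 h these 6 comparisons of means had 0 to 102, and slopes without the 36 h array of their own condition 0 to 59.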

Other observations

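Other homeobox genes of the posterior embryo were looked at beside the clusters, 9 in all, of which 4 were tested. Nkx1-2, a gene of the caudal epiblast, rose in WT without cytokine by 2.90 ± 0.17 log2 units per 12 h (limma, adjusted p = 8.53e-06), and there it read 48.2, 648 and 3769 at 12, 24 and 36 h. In KO without cytokine it read 34.5, 54.2 and 32.7. It also rose in KO titled BMP4+WNT3A, where it read 1176, 3769 and 6654, in WT with WNT3A, where it read 1389, 5257 and 5793, and in WT with BMP4, where it read 261, 605 and 1226. Gbx2, of the midbrain and hindbrain border, rose in the same 4 conditions, with 2.03 ± 0.20 in WT without cytokine (adjusted p = 0.000225). Mnx1, a gene of notochord and motor neurons, rose in KO titled BMP4+WNT3A by 1.46 ± 0.22 and in WT with WNT3A by 1.43 ± 0.22.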
